A study of Mus musculus with 6 samples.

Results

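Chemokine ligands, the small secreted proteins that direct the movement of leukocytes, were followed in the livers of mice lacking the fatty acid elongase Elovl6 in the liver (LKO) and of control mice. The genes were taken by name, as every gene with a probe on the array whose symbol begins with Ccl or Cxcl and a number, and Cx3cl1 and Xcl1. This gave 35 genes measured by 44 probes, out of 22911 named genes and 56605 probes. A further 9 gene symbols of this kind in the RefSeq table, among them Cxcl11 and the near copies Ccl21b, Ccl21c and Ccl27b, matched no probe and were not analysed here.

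Livers of 3 male LKO mice were set against livers of 3 male controls, whose sample titles name them Flox. All 6 mice ate the high-sucrose diet D11725 for 14 days and went without food for 4 hours before the liver was frozen, so no group without this diet was part of the comparison. The Cre driver, strain and age are not given in the sources used here. Each liver's RNA was read on a separate one-colour array made by Agilent, which leaves n = 3 per group, a number that limits the precision.

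Chemokines fall into CC, CXC, C and CX3C families by the spacing of their first cysteines, and they signal through G protein-coupled receptors on the cells they attract. CXC ligands with an ELR motif mainly attract neutrophils, Ccl2 and Ccl7 attract monocytes through CCR2, and Cxcl9 and Cxcl10 attract T cells through CXCR3. In liver they are made by Kupffer cells, endothelial cells, stellate cells and, in inflammation, hepatocytes. In whole-tissue RNA, fewer cells of a type and less RNA per cell cannot be told apart.

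The arrays came from 1 slide and 1 scan. Per the array headers, LKO 1 lay in the first slide column together with the 3 controls, whereas LKO 2 and LKO 3 lay in the second column. LKO 1 differed from LKO 2 and LKO 3 in many of the ligands below, and that difference and the slide column cannot be told apart. The targeted gene Elovl6 had processed signals of 62.3, 88.5 and 99.6 in LKO livers, against 6364, 12349 and 6624 in control livers, 91.0-fold lower in LKO, as the labels say. All 9 hepatocyte markers were well above background on every array. The test covered 14171 genes, of which 2 (0.0141%) were under an adjusted p of 0.05 in limma with Benjamini-Hochberg adjustment over all of them.

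A spot counts as detected here when the scanner software marked it well above background, which took a processed signal of at least 14.2 to 19.6 units depending on the array. Of the 35 ligand genes, 16 were detected on all 6 arrays, 10 on some and 9 on none. The 9 that no array detected were Ccl1, Ccl11, Ccl12, Ccl17, Ccl20, Ccl22, Ccl26, Cxcl3 and Cxcl15. They include Ccl17 and Ccl22, ligands of CCR4, Ccl20, the ligand of CCR6, and Ccl1, a ligand of CCR8. LKO 1, LKO 2 and LKO 3 had 21, 22 and 23 ligand genes detected, and the controls 18, 20 and 19. A gene entered the test if it was detected on all 3 arrays of at least 1 group, and 19 of the 35 did so.

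No ligand gene passed the adjusted threshold in limma. At an unadjusted p under 0.05 there were 6 of 19 (31.6%), against 11.2% of all genes tested, namely Cxcl1, Ccl3, Cxcl12 and Ccl6 with higher values in LKO and Ccl8 and Cxcl9 with lower ones. The 4 with higher values stand beside 5.56% of all genes, and the 2 with lower values beside 5.6%. Without LKO 2 the count was 3, and it was 2 with slide column as a covariate. Ccl3, Ccl8 and Cx3cl1 entered the test although 1 group did not have them on all arrays. Among the 16 genes detected on every array the count was 4 (25.0%). For these narrower counts the share of all genes in the same fit is not given here, and the 11.2% does not apply to them. The groups did not overlap for 4 of the 19 (21.1%), near the 17.3% of all genes. These were 3 with higher values (15.8%, against 8.11% of all genes) and 1 with lower values (5.26%, against 9.21%). They include Ccl3 and Ccl8, and among the 16 genes detected on every array the groups did not overlap for 2 (12.5%). Over the 19 genes the median log2 change was 0.08, with 11 higher and 8 lower, beside a median of 0.00 over all genes tested, where 50.8% were higher.

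Cxcl1, a main neutrophil attractant and an agonist of CXCR2, had the largest measured log2 change of the 19 tested ligands. Its processed signals were 485, 2829 and 7547 in LKO livers, against 240, 489 and 342 in control livers. LKO 3 and LKO 2 stood far above every control, while LKO 1 was close to the highest control. On the scaled log2 values LKO 1 lay just above control 2, at 0.60 and 0.54 relative to the control mean, so the groups did not overlap on that scale by a narrow margin. Cxcl1 was 6.86-fold higher in LKO (log2 change 2.78 ± 0.93, SE, limma adjusted p = 0.359). The exact two-sided permutation p was 0.1, and no smaller one is possible with 3 against 3. The fold was 14.6 without LKO 1 (adjusted p = 0.0615) and 3.71 without LKO 3. Within the first slide column, where LKO 1 stands against the 3 controls, it was 1.51.

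Cxcl2 and Cxcl3 lie near Cxcl1 on chromosome 5 and encode close relatives that also act on CXCR2. Cxcl2 had signals of 20.8, 6.02 and 15.6 in LKO livers, against 5.33, 3.13 and 3.77 in control livers, and was detected on LKO 1 alone, so it was not tested. Cxcl3 lay between 3.31 and 3.68 in LKO livers and between 3.00 and 4.08 in control livers, not well above background anywhere. Cxcl5, another neutrophil attractant, was detected on LKO 3 (25.9) and control 3 (70.3) only. The Cxcl15 probe was not well above background on any array. Among the 5 ligands of this class, Cxcl1 was thus the only 1 detected on more than 2 arrays.

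The start regions of these 3 neighbours are shown because Cxcl1 was detected in every mouse, Cxcl2 in 1 and Cxcl3 in 0. The sequences are RefSeq promoters of GRCm38.p6, each 90 bases long, at positions -110 to -21 relative to the gene's start. Capitals mark matches on either strand to GGGNNTTTC, a core of the kappa B sites that NF-kB is known to bind.
Cxcl1 at chr5:90891135-90891224, plus strand: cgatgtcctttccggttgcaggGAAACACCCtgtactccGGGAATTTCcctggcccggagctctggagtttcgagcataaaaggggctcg
Cxcl2 at chr5:90903789-90903878, plus strand: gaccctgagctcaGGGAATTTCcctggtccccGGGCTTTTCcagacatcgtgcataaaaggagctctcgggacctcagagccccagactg
Cxcl3 at chr5:90785991-90786080, plus strand: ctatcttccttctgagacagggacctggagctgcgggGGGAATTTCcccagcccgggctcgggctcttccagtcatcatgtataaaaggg
The letters GGGAATTTC begin at position -71 in Cxcl1, -97 in Cxcl2 and -73 in Cxcl3. Cxcl1 and Cxcl2 hold a second match and Cxcl3 does not. Of the 35 ligand genes, 25 had a promoter in the table, 28 promoters in all, and 7 of these (25.0%) held the core within 250 bases before the start, against 3.72% of all 32851 promoters. The other matches were in Ccl9, Ccl20, Cxcl9 and Xcl1. Of the 7, 3 are thus the neighbouring genes shown. The core was chosen with earlier results of these data known and shortened by 1 letter after a first search, so the shares carry no test. Cxcl3, which no array detected, carries the same letters as Cxcl1. The promoters of Ccl3, Ccl6 and Ccl8 held no match, and Ccl2, Ccl4 and Ccl7 have no entry in the table.

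**Figure D1:**
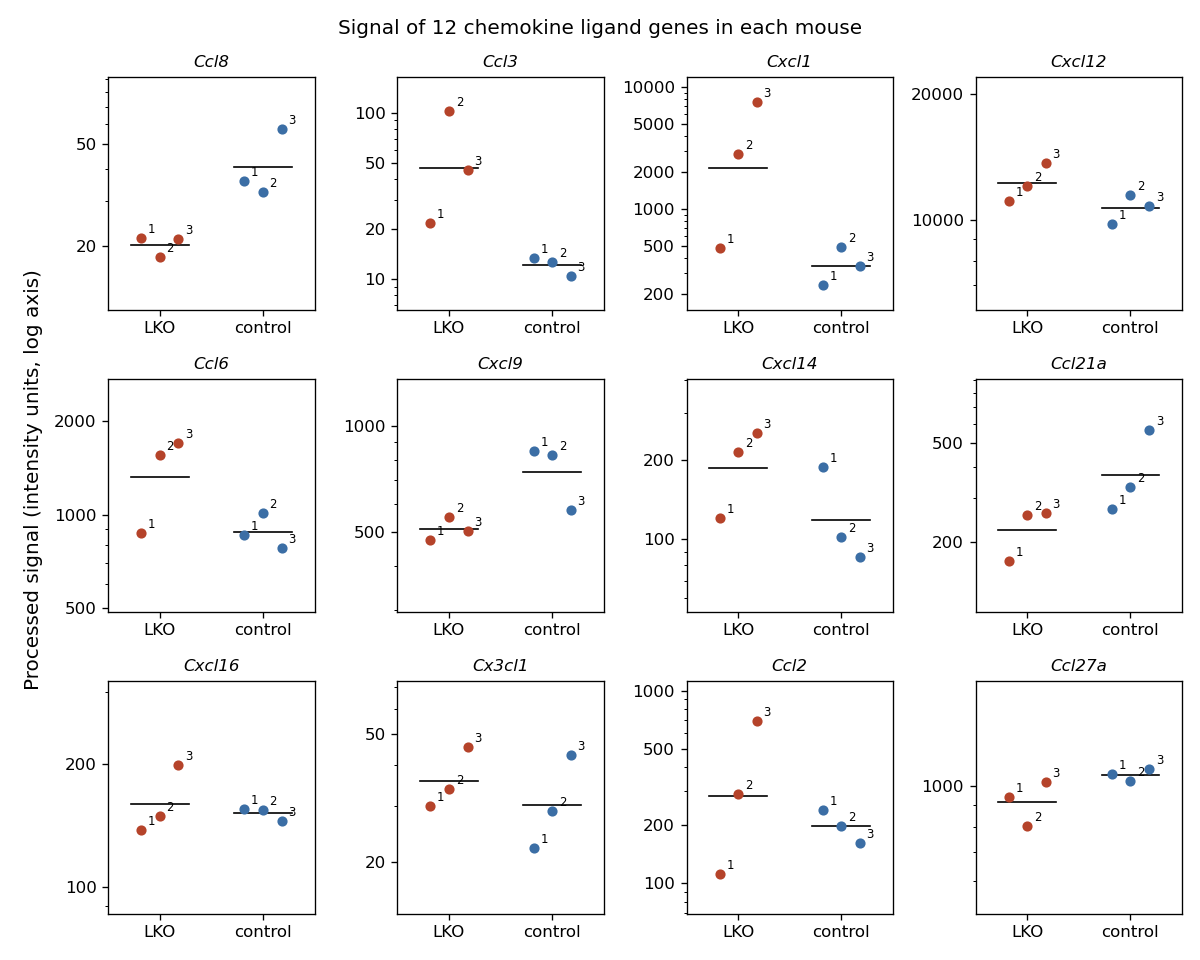
Processed signal (intensity units, log axis, with a different range in each panel) of the 12 ligand genes with the smallest p, with 1 point per mouse numbered by replicate, LKO left and control right, and a line at the geometric mean. LKO 2 and LKO 3 are the highest points for Cxcl1, Ccl3 and Ccl6, while LKO 1 lies near the controls for Cxcl1 and Ccl6.

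Ccl3, a macrophage product that attracts leukocytes, was detected on all 3 LKO arrays and on none of the controls. Its signals were 21.9, 102 and 45.6 in LKO livers, against 13.4, 12.7 and 10.5 in control livers, so every LKO mouse was above every control. Because the controls were not well above background, LKO was set against the lowest signal marked as detected on each control array. On that basis Ccl3 was 3.00-fold higher in LKO (log2 1.585). Some spots above that lowest signal were also not detected, such as Ccl4 on control 1, so 3.00 is not a strict lower limit. The measured log2 change was 2.05 ± 0.52 (SE), and it was 0.68 with the normexp background, which lies under the bound, and 0.94 with LKO 1 alone against the controls. Ccl4, the neighbouring gene, also encodes a leukocyte attractant and had signals of 13.7, 42.2 and 76.6 in LKO livers, against 20.8, 22.5 and 17.5 in control livers. Ccl4 was detected on LKO 2, LKO 3 and control 2 and was not tested; its second probe was detected on the same 3 arrays.

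The monocyte attractants Ccl2 and Ccl7 had their highest values in LKO 2 and LKO 3. Ccl2 had signals of 112, 289 and 699 in LKO livers, against 240, 198 and 162 in control livers. LKO 3 and LKO 2 were the highest of the 6 mice and LKO 1 the lowest, so the groups overlapped (log2 change 0.63 ± 0.61, SE, limma adjusted p = 0.747). Without LKO 3 the log2 change was -0.02, and within the first slide column it was -0.73. Ccl7 had signals of 3.85, 35.1 and 64.4 in LKO livers, against 12.8, 6.95 and 8.28 in control livers, and only LKO 2 and LKO 3 were well above background. Ccl12 and Ccl11, which lie between Ccl7 and Ccl8 on chromosome 11, were detected on no array.

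Ccl8, whose mouse product acts on CCR8, had lower values in LKO, in the same gene cluster. Its signals were 21.5, 18.1 and 21.4 in LKO livers, against 36.0, 32.7 and 57.2 in control livers, with every LKO mouse below every control. It was 1.86-fold lower in LKO (log2 change -0.90 ± 0.21, SE, limma adjusted p = 0.251, exact permutation p = 0.1), and LKO 2 was not well above background. With LKO 1 alone against the controls the log2 change was -0.83, nearly as large, whereas with the normexp background it was -0.30. Ccl8 was at an unadjusted p under 0.05 in all 15 alternatives in which it was fitted, Ccl3 in 14 of 15 and Cxcl1 in 13 of 16.

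Of the other CC ligands linked to inflammation, Ccl5, Ccl6, Ccl9 and Ccl24 were detected on every array. Ccl6, a macrophage and neutrophil product that acts on CCR1, had signals of 870, 1551 and 1700 in LKO livers, against 862, 1015 and 782 in control livers. LKO 2 and LKO 3 were above all controls and LKO 1 was not (log2 change 0.69 ± 0.26, SE, limma adjusted p = 0.418). With LKO 1 alone against the controls it was 0.08, and without LKO 1 the adjusted p was 0.0759. Ccl9, the neighbouring macrophage gene, lay between 2604 and 2888 in LKO livers and between 2877 and 3155 in control livers, a log2 change of -0.03 ± 0.09 (SE). Ccl24, an eosinophil attractant, had a log2 change of 0.08 ± 0.13 (SE), and Ccl5, a T cell and NK cell product, one of -0.13 ± 0.16.

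**Figure D2:**
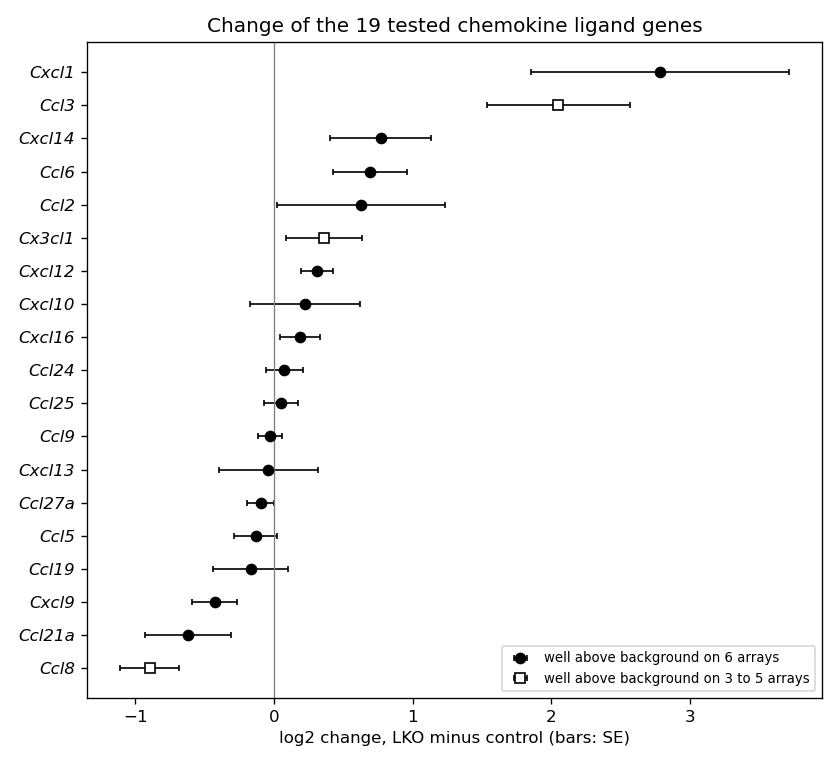
Log2 change, LKO minus control, of the 19 tested ligand genes with its SE, filled where the gene was well above background on all 6 arrays and open where it was not. Cxcl1 (2.78) and Ccl3 (2.05) lie at the high end, Ccl8 (-0.90) at the low end, and most others within 1 of 0.

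The CXCR3 ligands were both detected on every array. Cxcl9 had signals of 475, 553 and 503 in LKO livers, against 849, 825 and 577 in control livers. All LKO signals were below all control signals before scaling, but on the scaled values LKO 2 lay above control 3, and the groups overlapped (log2 change -0.43 ± 0.17, SE, limma adjusted p = 0.423). Cxcl10, an interferon-induced gene beside it on chromosome 5, had signals of 355, 703 and 1095 in LKO livers, against 733, 617 and 474 in control livers (log2 change 0.23 ± 0.40, SE, adjusted p = 0.876). LKO 1 was the lowest and LKO 3 the highest of the 6 mice for Cxcl10, at -0.66, 0.37 and 0.96 in LKO 1, LKO 2 and LKO 3 relative to the control mean (log2 units), so the sign of its change is not settled. Its promoter is shown for the interferon response core GAAANNGAA, in capitals, in the 90 bases that begin at position -220 relative to the start.
Cxcl10 at chr5:92349020-92349109, minus strand: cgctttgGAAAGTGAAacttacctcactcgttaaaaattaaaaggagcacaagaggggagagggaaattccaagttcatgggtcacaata
Cxcl9, Cxcl10, Cxcl14, Ccl1, Ccl3 and Ccl19 held this core on either strand, 6 of the 28 ligand promoters (21.4%), against 7.13% of all promoters. This core too was shortened by 1 letter after a first search, and the shares carry no test. The Cxcl9 promoter held both cores, which did not overlap.

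Of the homeostatic CXC ligands, Cxcl12, which retains leukocytes through CXCR4 and is made by stromal and endothelial cells, was detected on every array. Its signals were 11119, 12083 and 13716 in LKO livers, against 9779, 11466 and 10821 in control livers. After scaling every LKO mouse lay above every control, by a small margin for LKO 1 (log2 change 0.31 ± 0.12, SE, limma adjusted p = 0.414, exact permutation p = 0.1). A second Cxcl12 probe gave a log2 change of 0.12, with LKO 1 the lowest of the 6 mice before scaling. Cxcl14, a chemokine of epithelia, had signals of 121, 214 and 251 in LKO livers, against 188, 102 and 85.6 in control livers, with overlap between the groups (log2 change 0.77 ± 0.36, SE, adjusted p = 0.498). Cxcl16, a membrane-bound ligand of CXCR6, had a log2 change of 0.19 ± 0.14 (SE) with both of its probes at 0.19, and Cxcl13, a B cell attractant, one of -0.04 ± 0.35.

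Among the homeostatic CC ligands, 3 of the 4 tested had lower values in LKO (50.8% of all genes tested were higher). Ccl21a, which guides dendritic cells and T cells through CCR7, had signals of 168, 258 and 261 in LKO livers, against 272, 333 and 567 in control livers. Every LKO signal was below every control signal, but the scaled groups overlapped (log2 change -0.62 ± 0.31, SE, limma adjusted p = 0.522). The log2 change was -0.31 without control 3, -0.40 without LKO 1 and -1.05 with LKO 1 alone against the controls. Which of the near-identical Ccl21 copies the probe measured is uncertain. The log2 change was -0.17 ± 0.27 (SE) for Ccl19, the other CCR7 ligand, -0.10 ± 0.10 for Ccl27a, a skin chemokine, and 0.05 ± 0.12 for Ccl25, a thymus and gut chemokine. For Ccl27a another probe had a change of 0.25, beside -0.10 and -0.14 in the rest, so its direction is not settled. Cx3cl1, a membrane-bound chemokine of endothelium, had signals of 29.9, 33.7 and 45.7 in LKO livers, against 22.1, 28.8 and 43.1 in control livers (log2 change 0.36 ± 0.27, SE, adjusted p = 0.670).

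**Figure D3:**
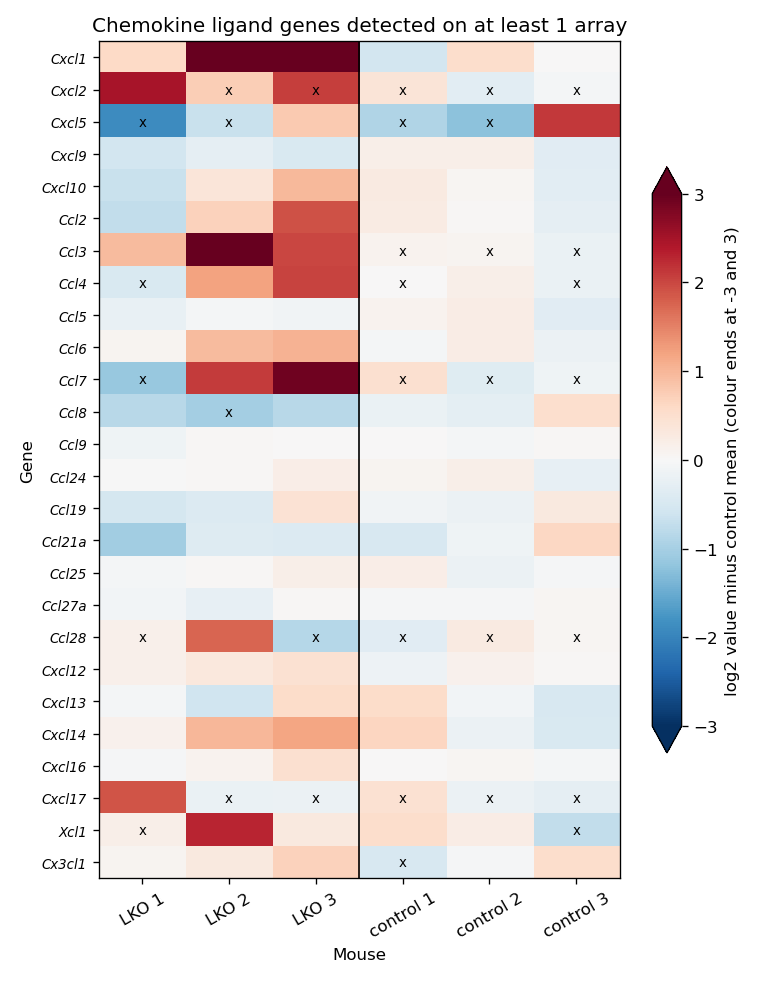
Log2 value minus the control mean of the 26 ligand genes detected on at least 1 array, by mouse, with LKO left of the line, genes ordered by role, red for higher and blue for lower, and a cross where the spot was not well above background. LKO 2 and LKO 3 are dark red for Cxcl1, Ccl3 and Ccl7, and Ccl8 is blue in all 3 LKO mice.

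The LKO mice differed among themselves across the ligands. Averaged over the 19 tested ligands, the log2 value minus the control mean came to -0.16, 0.38 and 0.68 in LKO 1, LKO 2 and LKO 3, against 0.02, 0.03 and -0.05 in the controls. Most of the LKO 2 average came from Cxcl1 (3.19) and Ccl3 (3.21). A large part of the LKO 3 average also came from these genes, with Cxcl1 at 4.55. Ccl3 was among the 19 because all LKO arrays detected it, while no control array did. The average without these genes is not given here. LKO 3 was the highest of the 6 mice for 10 of the 19 ligands (52.6%), against 19.1% of all genes. LKO 1 was the highest for 0 and the lowest for 6 (31.6%), against 13.6% of all genes for the lowest. Control 3 was also the lowest for 6 (31.6%), against 17.1% of all genes. By position, the 7 tested ligands on chromosome 11 had a median log2 change of 0.19 with 4 higher and 3 lower. The 5 tested on chromosome 5 had a median of 0.08 with 3 higher and 2 lower.

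Many receptors of these ligands were below background. Of 19 chemokine receptor genes, 8 were detected on no array, among them Cxcr2, the receptor of Cxcl1, and Ccr1, a receptor of Ccl3 and Ccl6. Of the 8 tested, 6 were higher and 2 lower in LKO (median log2 change 0.05), and 0 were at an unadjusted p under 0.05 (limma), nor at the adjusted threshold. The log2 change was 0.48 ± 0.33 (SE) for Ccr2, the receptor of Ccl2, 0.19 ± 0.15 for Cxcr3, the receptor of Cxcl9 and Cxcl10, and -0.25 ± 0.15 for Cxcr6, the receptor of Cxcl16. All 4 atypical receptors, which take up chemokines without signalling through G proteins, were lower in LKO (median log2 change -0.27), and 0 passed the adjusted or the unadjusted threshold in limma. Over all genes tested 50.8% were higher, and 11.2% were at an unadjusted p under 0.05 in limma. Ackr3, which scavenges Cxcl12, had a log2 change of -0.60 ± 0.37 (SE) and Ackr4, which scavenges Ccl19 and Ccl21, one of -0.31 ± 0.14. The platelet chemokines Ppbp and Pf4, whose names fall outside the rule, had log2 changes of 0.55 ± 0.13 (SE, limma adjusted p = 0.251) and 0.30 ± 0.26.

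Upstream cytokines and feedback genes of NF-kB were measured beside them. Of 20 such genes 17 were tested, 13 with higher and 4 with lower values (50.8% of all genes were higher), and the median log2 change was 0.25. In limma 0 passed the adjusted threshold and 3 were at an unadjusted p under 0.05, beside 11.2% of all genes. Tnf, a cytokine that induces Cxcl1 and Ccl2 in many cells, had signals of 1915, 1794 and 1248 in LKO livers, against 1111, 766 and 940 in control livers, with no overlap (log2 change 0.92 ± 0.20, SE, adjusted p = 0.223). Relative to the control mean, Tnf was at 1.14 in LKO 1, 1.09 in LKO 2 and 0.52 in LKO 3 (log2 units). LKO 1 and LKO 2 were thus nearly equal for Tnf, and LKO 3, the highest for Cxcl1, was the lowest LKO mouse. A link between Tnf and Cxcl1 was not tested. Tnf was read from 1 probe, and whether that probe measures Tnf alone was not checked. Nfkbia, the NF-kB inhibitor, had a log2 change of 0.41 ± 0.13 (SE) and Birc3, an inhibitor of apoptosis, one of -0.74 ± 0.16. Of 15 interferon-induced genes tested, 5 were higher and 10 lower in LKO (median log2 change -0.07).

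**Figure D4:**
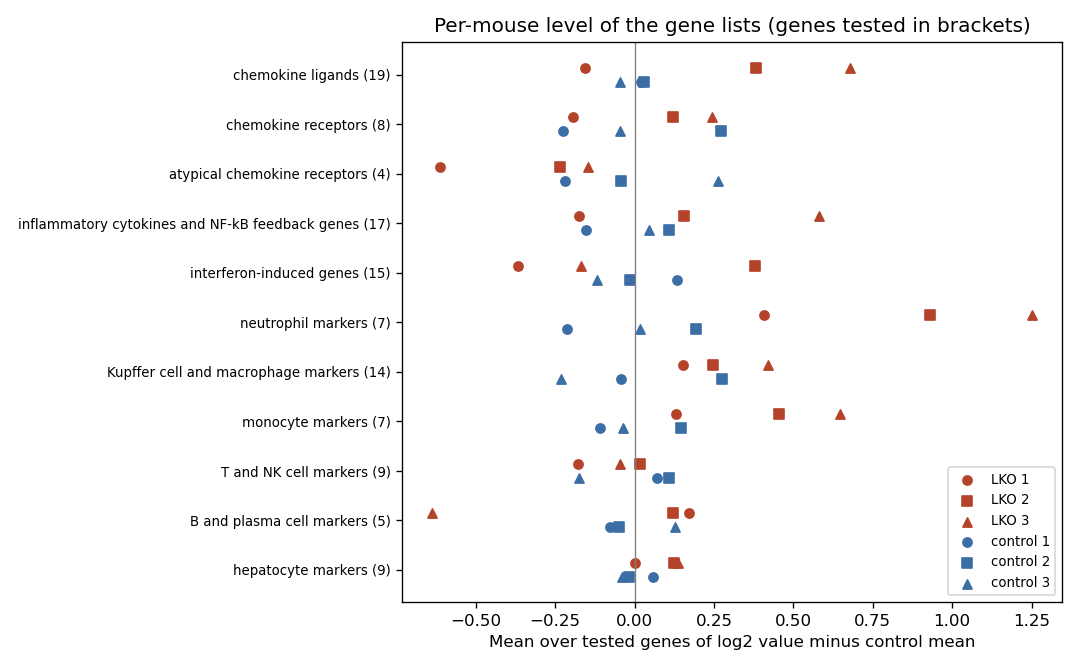
Mean over the tested genes of each list of the log2 value minus the control mean, with 1 point per mouse, LKO in red above control in blue and the number of tested genes in brackets. The mean of the neutrophil markers, most of it from S100a8, S100a9 and Retnlg, is higher in all 3 LKO mice than in any control. The mean of the ligands is higher in LKO 2 (0.38) and LKO 3 (0.68) only. Cxcl1 and Ccl3 make up most of the LKO 2 value and a large part of the LKO 3 value.

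Several markers of neutrophils, monocytes and macrophages had higher values beside the ligands. Of 7 neutrophil markers tested, 5 had higher values, beside 50.8% of all genes. In limma 3 were at an unadjusted p under 0.05, beside 11.2% of all genes. These were S100a8 (log2 change 2.43 ± 0.61, SE), S100a9 (2.21 ± 0.59) and Retnlg (1.23 ± 0.33). S100a8 had signals of 200, 479 and 1091 in LKO livers, against 62.9, 133 and 101 in control livers. The order of the 3 LKO mice was the same as for Cxcl1, and a link between S100a8 and Cxcl1 was not tested. The mean shift of the list was 0.41, 0.93 and 1.25 in LKO 1, LKO 2 and LKO 3, against -0.21, 0.19 and 0.02 in the controls. Most of the shift in the LKO mice came from S100a8, S100a9 and Retnlg. The list was not uniform, with Elane at -0.19 ± 0.12 and Csf3r at -0.04 ± 0.10 (log2 changes with SE), and Mpo, Ngp and Cxcr2 were detected on no array. The summed level of the list, in units of each array's 75th percentile, was 74.2 to 86.7 in LKO livers and 68.7 to 79.9 in control livers, most of it from Csf3r.

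For macrophages including Kupffer cells, 13 of 14 markers were higher in LKO (median log2 change 0.21), beside 50.8% of all genes. The mean shift of the list was 0.15, 0.25 and 0.42 in LKO 1, LKO 2 and LKO 3. In controls 1, 2 and 3 it was -0.04, 0.27 and -0.23, so control 2 lay above LKO 1 and LKO 2. Marco had the largest change (1.25 ± 0.41, SE). It was the only 1 of the 14 at an unadjusted p under 0.05 in limma, beside 11.2% of all genes. The summed level was 130 to 156 in LKO livers and 106 to 145 in control livers. The defining Kupffer cell marker Clec4f had a log2 change of 0.19 ± 0.13 (SE) and Adgre1 one of 0.19 ± 0.16. Of 7 monocyte markers tested, 5 had higher values, beside the same 50.8%, with Chil3 at 1.77 ± 0.45 and Lyz2 at 0.46 ± 0.12 (log2 changes with SE). The 2 with lower values were Itgam at -0.30 ± 0.20 and Ly6c2 at -0.01. The summed level was 197 to 209 in LKO livers and 169 to 194 in control livers. Most of it came from Fn1 alone (log2 change 0.17 ± 0.09, SE), so it says little of the other markers. Dendritic cell, T and NK cell and B and plasma cell markers had medians of 0.00, 0.00 and -0.06, endothelial, stellate and bile duct markers 0.05, -0.01 and 0.11, and erythroid and platelet markers 0.30. The 3 mesothelial markers tested had a median of -0.37, which was -0.05 without LKO 1 and -0.04 with the normexp background. They did not go together, with Msln at -0.37, Wt1 at -0.50 and Krt18, by far the brightest, at 0.35. Over the 2 detected on all 6 arrays, Msln and Krt18, the median was -0.006. No marker passed the adjusted threshold. The part of cell content in the ligand values was not tested.

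**Figure D5:**
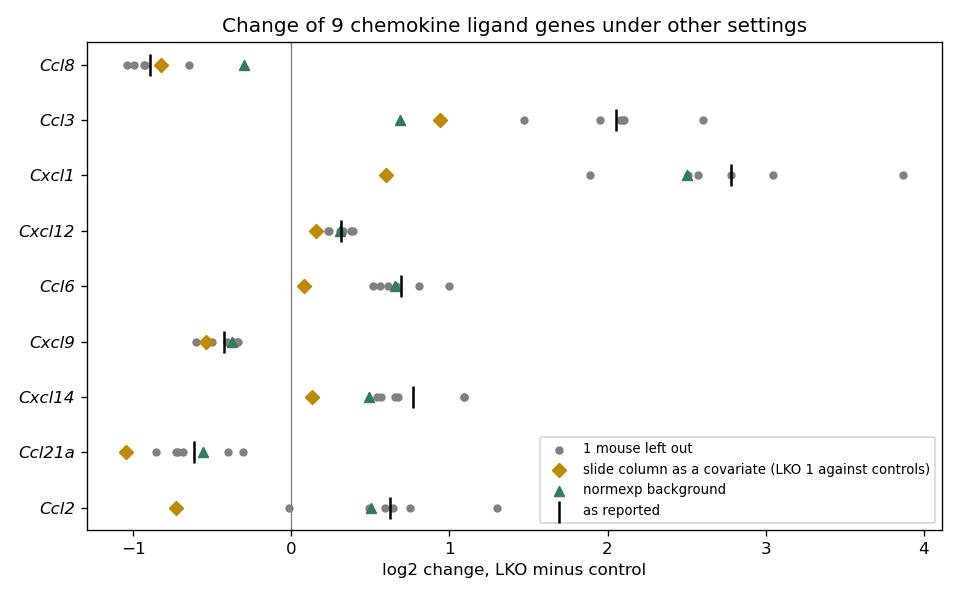
Log2 change, LKO minus control, of 9 ligand genes as reported (bar), with 1 mouse left out (grey), with the normexp background (triangle) and with slide column as a covariate, which sets LKO 1 alone against the controls (diamond). For Cxcl1 the diamond is at 0.60 and the bar at 2.78, for Ccl2 the diamond is at -0.73, and for Ccl8 the diamond (-0.83) is close to the bar (-0.90).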

How the data were processed

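Liver RNA of 3 LKO and 3 control mice was measured on one-colour arrays, 1 mouse per array. The arrays were read with Feature Extraction 11.5.1.1 from Agilent, which the file headers and the submitters' processing notes both name. Its processed signal, as deposited, is an intensity after background correction by that software, and the deposited median foreground and background values are raw intensities. The deposited flags (well above background, outlier) are other values set by the software. The authors' value table is the processed intensity times 1 constant per array, 2.08 to 2.48.

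Probe accessions were matched without versions to RefSeq GRCm38.p6, which named 32994 probes and left 23611 unnamed. The headers name an earlier build, so only promoter positions of the RefSeq table are given. Values were log2 of the signal minus the array's 75th percentile, which lay between 265 and 298. Outlier spots (64 to 111 per array) were dropped, 52.1% to 56.6% of spots were well above background and 0 were saturated. A gene was read from its brightest probe and tested if detected on all 3 arrays of a group. Groups were compared over 14171 genes by the moderated two-sided test of limma 3.58.1 (lmFit, then eBayes) under R 4.3.3, after a test on simulated data. The normexp alternative used median signals, since the files hold no mean signal column.

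Members, lists and the 2 sequence motifs, searched in the 250 bases before each start, were chosen with earlier results of these data known, and each motif was shortened by 1 letter after a first search. Full values were given for members at an unadjusted p under 0.05, or detected on all arrays of 1 group and none of the other. Those with the next smallest p followed, up to 12 genes. Ccl4, Ccl7, Cxcl2, Cxcl3, Cxcl5 and Cxcl10 were described after their values were seen. Same-numbered mice of the 2 groups did not deviate together (correlations 0.04, -0.05 and -0.07 for numbers 1, 2 and 3), so the numbers were not used to pair them. The labels call the samples separate mice.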

Additional observations from a re-analysis of the deposited data

How the results depend on the processing

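The counts of genes called, the log2 changes of the 12 named ligands and the medians of the ligands, the chemokine receptors and the cell marker lists were recomputed under 16 alternatives, of which Ccl3, Ccl8 and Cx3cl1 could be fitted in 15. No ligand gene passed an adjusted p of 0.05 in any of them, at adjusted p values no lower than 0.0615 among the 12 named ligands. Ligand genes at an unadjusted p under 0.05 numbered 6 as reported and between 3 and 8 with 1 mouse left out, the lowest without LKO 2, and 2 with slide column as a covariate. The count over all genes was 2 as reported, 16 with normexp, 13 with trend and robust eBayes, 1 with no filter on dim probes, 1 with genes detected on all 6 arrays, 1 with the slide column and between 1 and 9 with 1 mouse left out. The median of the tested ligands lay between -0.07 and 0.16. Direction turned for 3 named ligands: Ccl2 (-0.73 with the slide column, and between -0.018 without LKO 3 and 1.30 without LKO 1), Cxcl16 (-0.038 with the slide column) and Ccl27a (0.0048 with the mean of all probes). With the slide column only LKO 1 stands against the controls, which is how that fit is built. The mean of all probes takes in the Ccl27a probe at 0.25 beside those at -0.10 and -0.14. Leaving out LKO 3 takes away the highest mouse for Ccl2 (699). Why the probes and the mice differ was not tested. With the replicate number as a block the ligand count was 8 and the count over all genes 3, but the numbers were not shown to pair the mice. Dim probes limit Ccl3 and Ccl8, whose log2 changes with normexp were 0.68 and -0.30.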

Other observations

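Some ligands were detected in a single mouse or in mice of both groups without a group pattern. Xcl1, a T cell and NK cell product that attracts cross-presenting dendritic cells, had signals of 17.6, 72.9 and 19 in LKO livers, against 24.4, 18.9 and 9.88 in control livers, so LKO 2 stood alone. Ccl28, a mucosal chemokine, was well above background only on LKO 2 (19.8), and Cxcl17, a mucosal secreted protein, only on LKO 1 (27.8). Cxcl5 was highest in control 3 (70.3). These values were chosen after they were seen and carry no test.

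The cytokine Il1b, a product of macrophages and neutrophils, had signals of 69.2, 81.0 and 331 in LKO livers, against 353, 109 and 144 in control livers, with the highest value in control 1 and overlap between the groups (log2 change -0.42 ± 0.67, SE, limma adjusted p = 0.861).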
